A study of Mus musculus with 4 samples.

Results

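Histone genes were examined in MLE12 cells, an immortalized line of mouse lung epithelium that resembles alveolar type II cells, as a set of 47 genes among the 17906 genes for which the deposited table gives a level. The set was chosen by gene symbol alone. It comprised 38 genes named after the histone clusters (symbols starting with Hist1h, Hist2h, Hist3h or Hist4h), termed replication-dependent here, and 9 genes of histone variants outside the clusters (H2afz, H2afv, H2afy, H2afy2, H2afj, H3f3a, H3f3b, H1f0 and H1fx). The study sequenced polyadenylated RNA of 2 control and 2 Lmnb1 KD libraries of MLE12 cells, all 4 from cells grown in 2 µg/ml puromycin. In the study, lamin B1, a protein of the nuclear lamina, was depleted with lentiviral shRNA in stable lines. Which shRNA these libraries carried is not stated in the sources used.

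The level of a gene in this text is the authors' mean of normalized read counts over the 4 libraries. It joins control and Lmnb1 KD cells, and it carries no value, spread or depth of a single library. Thus, levels were compared between genes, as a description and with no test, and histone levels in Lmnb1 KD cells were not compared with those in control cells. For the same reason the knockdown could not be checked from these levels (Lmnb1 stood at 3946 over all 4 libraries). The levels of all 17906 genes ran from 1.16 to 179696 with a median of 277. Of the alveolar type II markers, Sftpb, Nkx2-1, Abca3 and Sftpc, genes of surfactant and of its regulation, lay between 893 and 6189, Sftpa1 stood at 1.57, and Sftpd and Lamp3 were not analysed here. The epithelial markers ranged from 12.9 for Krt18 to 31695 for Krt19. Of the fibroblast markers, Dcn stood at 12256, Col1a1 at 131, and Lum and Col1a2 at 4.18 and 4.34. The 3 immune markers with a level (Cd68, Csf1r and Itgam) did not exceed 51.4, the endothelial markers ran from 6.71 for Pecam1 to 171 for Tek, and the erythroid gene Hba-a1 stood at 7.77.

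Histones package DNA into nucleosomes, whose core holds the families H2A, H2B, H3 and H4, with H1 at the linker DNA. Most core histones are made in S phase from clustered, mostly intronless genes. Their mRNAs normally end just after a hairpin, which the protein SLBP binds, and lack a poly(A) tail. Histone variants are made throughout the cell cycle, from single genes whose mRNAs are polyadenylated, and they replace the S-phase histones in part of the chromatin. Selection of polyadenylated RNA therefore retains variant mRNAs but mostly not mRNAs that end at the hairpin, so levels of clustered genes in such libraries do not measure the amount of their total mRNA.

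The hairpin itself could be read in the annotated transcripts of 21 of the 31 replication-dependent genes whose identifiers matched the annotation (GENCODE M21, build GRCm38). It is a stem of 6 base pairs with a loop of 4 bases, and 5 forms of it were found. The sites of 5 genes are shown because between them they hold each form once. Capitals mark the 16 bases of the hairpin and small letters the 5 bases on either side.

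Hist1h1c: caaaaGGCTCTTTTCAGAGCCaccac

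Hist1h3c: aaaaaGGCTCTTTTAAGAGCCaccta

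Hist1h4d: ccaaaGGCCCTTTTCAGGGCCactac

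Hist1h4i: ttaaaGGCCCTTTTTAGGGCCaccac

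Hist1h4j: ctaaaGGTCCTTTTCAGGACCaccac

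The form of Hist1h1c occurred in 14 genes of the H1, H2A, H2B and H3 families. That of Hist1h3c, which has another loop, occurred also in Hist1h2bb, so in 2 genes. Those of Hist1h4d (3 genes), Hist1h4i (1 gene) and Hist1h4j (1 gene) were found in H4 genes, and the H4 genes with a hairpin had no other form. Each hairpin began 24 to 54 bases after the stop codon. None of the 9 variant genes held a hairpin after the stop codon of its longest coding transcript, also with 1 mismatch allowed in the stem. In 6 of the 10 replication-dependent transcripts without a hairpin the annotation ends at most 10 bases after the stop codon. The stretch in which the hairpins of other genes lie was therefore not searched in these.

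Variant genes were far more abundant than replication-dependent genes in these polyadenylated libraries. Per kb of annotated exon, the variants had a median level of 748 (9 genes, range 95.01 to 7028) and the replication-dependent genes one of 5.37 (31 genes, range 0.70 to 54.8). In these bulk libraries, a low level in every cell and a transcript in few cells cannot be told apart. The groups did not overlap: the lowest variant, H2afy2, stood 1.73-fold above the highest clustered gene, Hist1h1c, per kb of exon, and 1.38-fold above it per kb of coding sequence. H2afy2 shares much of its sequence with other genes, as described with the macroH2A genes, and the part of this in the gap was not tested. The median over all protein-coding genes with a matched length was 124 per kb of exon. Not divided by length, the variants lay between 181 and 20916, while the clustered genes had a median of 2.93 and a range of 1.22 to 85.5. The 38 clustered genes together made up 0.803% of the summed level of all 47 genes. Per kb of exon, the 31 with a length made up 1.92% of the sum over 40 genes, and 3.50% without H3f3b. At a mean level of 2, the minimum that the study set for its lists of changed genes, all 9 variants and 26 of 38 clustered genes were retained, against 95.9% of all protein-coding genes.

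**Figure D1:**
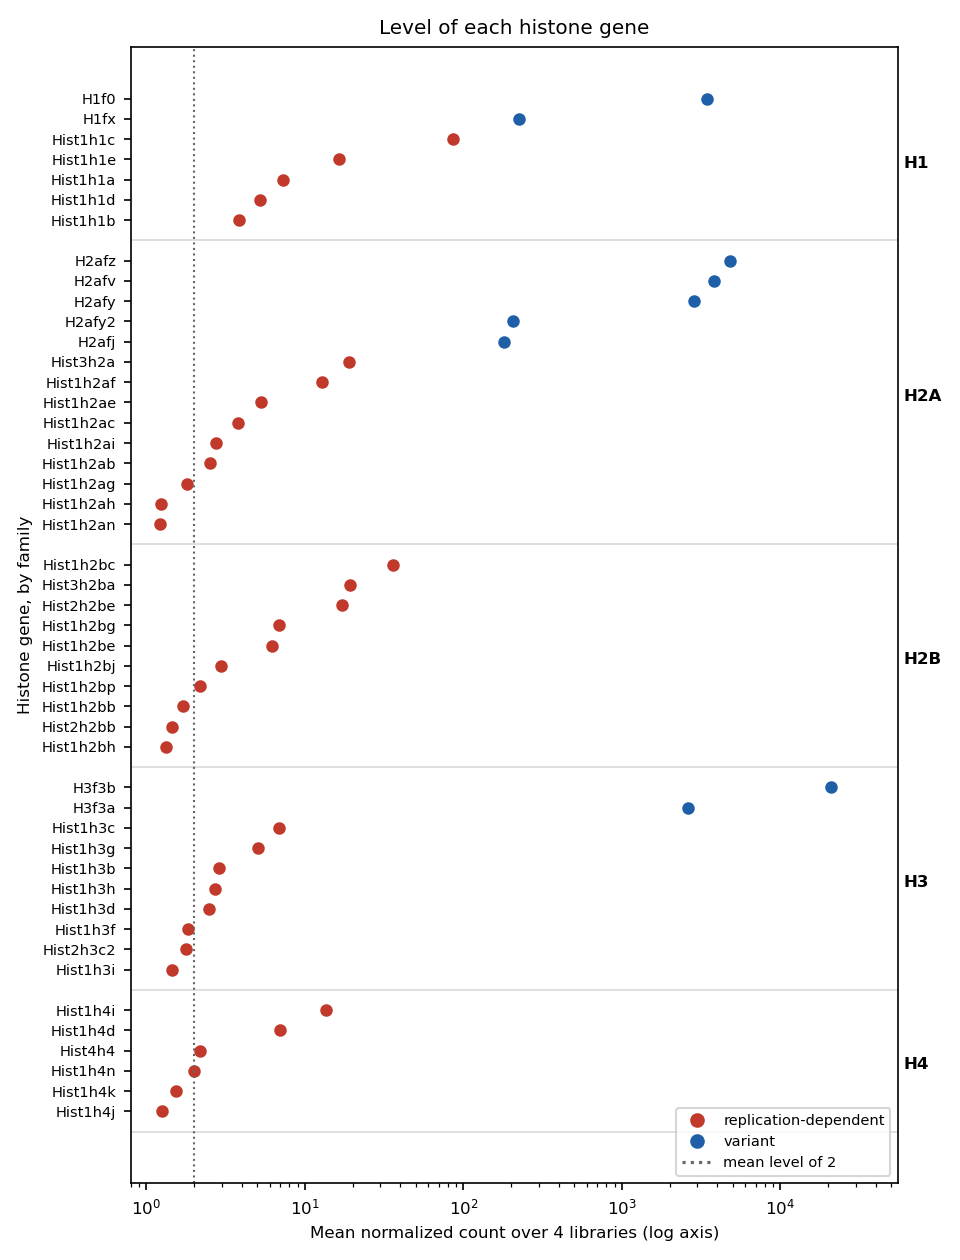
Mean normalized count over the 4 libraries (log axis) of the 47 histone genes, by family, with variants in blue and replication-dependent genes in red; the dotted line marks a mean level of 2. The 9 variants sit between 181 and 20916 and the 38 replication-dependent genes between 1.22 and 85.5, and the H2B and H4 families hold no variant of this set.

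**Figure D2:**
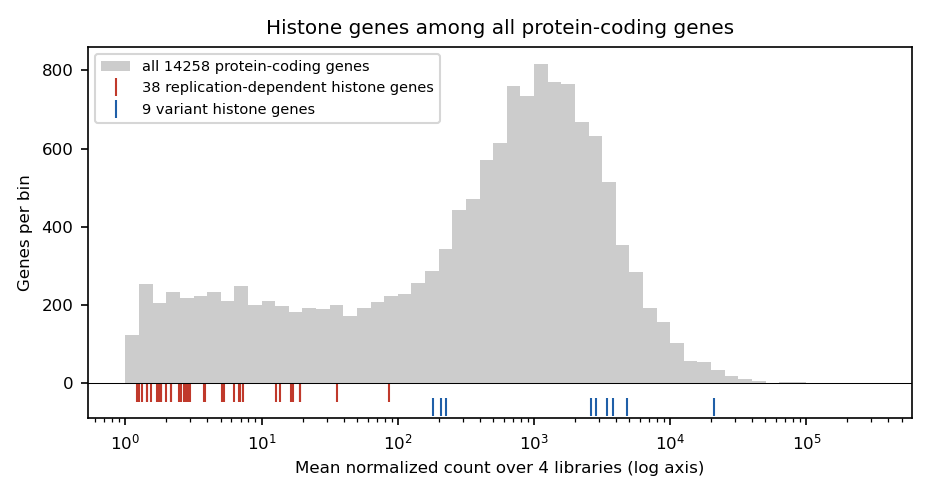
Number of protein-coding genes per bin of mean normalized count (log axis, grey), with ticks under the axis for the replication-dependent (red) and variant (blue) histone genes. All 38 replication-dependent genes lie under 100, where 28.8% of protein-coding genes lie.

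Among the variants, the H3.3 gene H3f3b led by a wide margin. H3f3a and H3f3b encode the same protein, H3.3, which is deposited in active genes and at telomeres. H3f3b (chromosome 11 from 116021912 to 116027962, minus strand) had a level of 20916, which only 70 of the 17906 genes exceeded, and it alone held 53.1% of the summed level of the 47 genes. H3f3a (chromosome 1 from 180800832 to 180813943, minus strand) stood at 2620. Per kb of exon H3f3b was 9.40-fold above H3f3a, and per kb of coding sequence 7.98-fold. The H3f3b transcript shared 21.8% of its length with 3 other genes, so both levels in this ratio carry some uncertainty. Exons of H3f3a overlap a pair of antisense genes, Gm17275 and H3f3aos, and the strand setting of the counting is not stated. Over 32.5% of its length, the H3f3a transcript shared sequence with 19 other genes at 95% identity or more, so its level is uncertain. Of these, 7 processed pseudogenes had levels of their own, led by H3f3c at 112, which sum to 141, or 5.40% of the level of H3f3a. The protein-coding gene Smpd4, which matched H3f3a over 172 bases, stood higher than H3f3a, at 2691, and Gm17275 stood at 97.7.

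H2A.Z, a variant found at promoters, is encoded by a pair of genes whose distance depended on the length used. H2afz, which encodes H2A.Z.1, had a level of 4821 and H2afv, which encodes H2A.Z.2, one of 3813. H2afz was 1.16-fold above H2afv per kb of exon, 1.26-fold per kb of coding sequence and 1.93-fold per kb of the longest coding transcript, and no spread is at hand to rank them. The H2afz transcript shared 90.1% of its length with 4 other genes, among them Tmcc1 and the noncoding gene Gm26623, whereas H2afv shared none. The level of H2afz is therefore the less certain of the pair.

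The macroH2A genes were far apart. MacroH2A carries a large globular domain besides its histone part and is known from the inactive X chromosome. H2afy (macroH2A1) had a level of 2831 and H2afy2 (macroH2A2) one of 207. H2afy was 4.38-fold above H2afy2 per kb of exon but 13.7-fold per kb of coding sequence. The union of annotated H2afy exons has 6809 bases, against 2046 in its longest coding transcript. Exons of H2afy overlap the antisense gene Gm47071 over 501 bases. The level of H2afy2 is uncertain, since its transcript shared 62.3% of its length with 3 other genes. Among these are Aifm2, at 868, which also overlaps it antisense over 233 bases, and Pvt1, at 421. H2afj, the gene of H2A.J, stood at 181, the lowest level among the variants without division by length. It overlaps the antisense gene Gm44364 over 141 bases.

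Linker histone variants also differed from each other. H1f0 encodes H1.0, a linker histone that accumulates in resting and differentiated cells, and H1fx encodes H1.10. H1f0 stood at 3431 and H1fx at 226, a difference of 8.99-fold per kb of exon and 14.7-fold per kb of coding sequence. The H1fx transcript shared 17.5% of its length with the antisense gene Gm5577, which stood at 36.9. H1f0 overlaps the antisense gene Gm49544 over 163 bases. The part of these in the ratios was not tested. H1f0, H1fx and H2afj are single-exon genes. Such genes made up 3 of 9 variants and 28 of 31 clustered genes with a transcript. Of the single-exon variants, 3 of 3 had the polyadenylation signal AATAAA in the last 50 bases of their annotated transcript. Over all 9 variants 6 had AATAAA there and 1 had ATTAAA, against 8 and 2 of the 31 replication-dependent genes. In 6 of these 31 the annotation ends at most 10 bases after the stop codon, so a signal further on was not searched.

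Hist1h1c, the gene of linker histone H1.2, was the most abundant clustered gene. It stood at 85.5 (54.8 per kb of exon), the 40.9th percentile of all genes, and held 27.0% of the summed level of the 38 clustered genes. Its transcript shared no sequence with another gene at the limits used, has the hairpin 24 bases after the stop codon, and runs on for 840 bases beyond it to an AATAAA. H1f0 was nonetheless 30.5-fold above it per kb of exon. The other H1 genes of the cluster stood at 16.5 for Hist1h1e, 7.27 for Hist1h1a, 5.19 for Hist1h1d and 3.85 for Hist1h1b. Exons of Hist1h1e overlap those of Hist1h2be on the same strand over 496 bases. Not divided by length, the H1 family had the highest share of the clustered level, 37.4% from 5 genes. Per kb of exon or of coding sequence, the clustered H2B genes with a length had a higher sum than the H1 genes.

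H2B and H4 were represented by clustered genes alone, since the set holds no variant of either. Summed over genes and not divided by length, the H2B family reached 94.9 and the H4 family 27.6. The sums of H3, H2A and H1 were 23561, 11904 and 3775, with 99.9%, 99.6% and 96.9% from variants.

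Among the H2B genes Hist1h2bc had the highest level not divided by length, 35.8, while per kb of exon Hist3h2ba (31.4) and Hist1h2bc (30.96) were close. On the undivided scale Hist1h2bc was the only clustered gene besides Hist1h1c above 20. The remaining 36 ran from 1.22 to 19.3. Hist1h2bc is annotated with a second exon, and its spliced transcript carries no hairpin after the stop codon. Hist3h2ba and Hist2h2be followed at 19.3 and 17.1. Hist2h2be, on chromosome 3, is annotated with 2192 bases after the stop codon and an AATAAA at its end, and no hairpin was found there. It was the highest of the 3 genes of the Hist2 cluster, in which Hist2h3c2 stood at 1.78 and Hist2h2bb at 1.44.

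The H2A genes of the clusters were lower. Not divided by length, Hist3h2a led them at 19.0, followed by Hist1h2af at 12.8 and Hist1h2ae at 5.29. Per kb of exon, Hist1h2af (32.0) stood above Hist3h2a (8.85). The remaining 6 stood between 1.22 and 3.81. The H2A genes also shared the most sequence: each matched 18 to 34 other genes, over a median of 95.5% of its transcript. All 9 overlap an annotated antisense gene. Hist1h2af matched others over 100% of its transcript, so its level is uncertain. The Hist3 cluster on chromosome 11 had nearly equal levels for its H2A and H2B gene, 19.0 and 19.3, which per kb of coding sequence were 48.7 and 50.9. Per kb of exon they differed, at 8.85 for Hist3h2a and 31.4 for Hist3h2ba. Exons of Hist3h2a overlap Trim17 on the same strand over 708 bases.

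H3 and H4 genes of the clusters had the lowest sums. Hist1h3c, the highest H3 gene, stood at 6.84 (10.9 per kb of exon), and the other 7 lay between 1.44 and 5.09. Hist1h4i, the highest H4 gene, stood at 13.7 (18.8 per kb of exon) and Hist1h4d at 6.93, while the other 4 H4 genes lay between 1.26 and 2.17. Hist4h4, the only gene of the Hist4 cluster, was among the latter at 2.17, although its annotated transcript extends 2445 bases past the hairpin to an AATAAA. It starts 3828 bases from the variant gene H2afj on chromosome 6, in the opposite direction. H2afj stood 66.8-fold above Hist4h4 per kb of coding sequence. Per kb of exon, H2afj stood at 98.96 and Hist4h4 at 0.757. The libraries mostly lack mRNAs that end at the hairpin, and the part of this in the gap was not tested.

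Levels of the clustered genes varied with what the annotation says of the 3′ end, but the direction depended on the scale. Across the 21 genes with a hairpin, the number of annotated bases after it had a Spearman correlation of 0.36 with the level, 0.34 with the level per kb of coding sequence and -0.28 with the level per kb of exon. The bases after the hairpin are themselves part of the exon length. Not divided by length, the 8 genes whose transcript ends with AATAAA had a median level of 11.2 (range 1.26 to 85.5). The 21 genes with neither AATAAA nor ATTAAA had one of 2.97 (range 1.22 to 35.8), so the ranges overlapped widely. Among these 21 are the 6 genes annotated to at most 10 bases after the stop codon, in which a signal further on was not searched. Per kb of exon, the medians of these groups lay closer together. These are descriptions across genes, which share libraries and in part sequence. Many of the genes lie under a level of 5, where depth limits their order, so the correlations are imprecise.

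Levels also varied with how much of a transcript is shared with other genes. Over the 31 genes the shared percentage had a Spearman correlation of -0.55 with the level, -0.45 with the level per kb of coding sequence and 0.00 with the level per kb of exon. Not divided by length, the 6 genes that shared nothing had a median level of 7.10. The 8 that shared over 90% of their transcript had one of 1.91. Per kb of exon, these medians lay closer together. Hist1h1c, Hist1h1a, Hist1h1d and Hist1h1b are among the 6, and no H1 gene is among the 8. Family therefore went together with sharing. Many of the 31 genes lie under a level of 5, where depth limits their order, so these correlations too are imprecise. How reads that match several genes were counted is not stated, and the part of shared sequence in these levels was not tested.

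**Figure D3:**
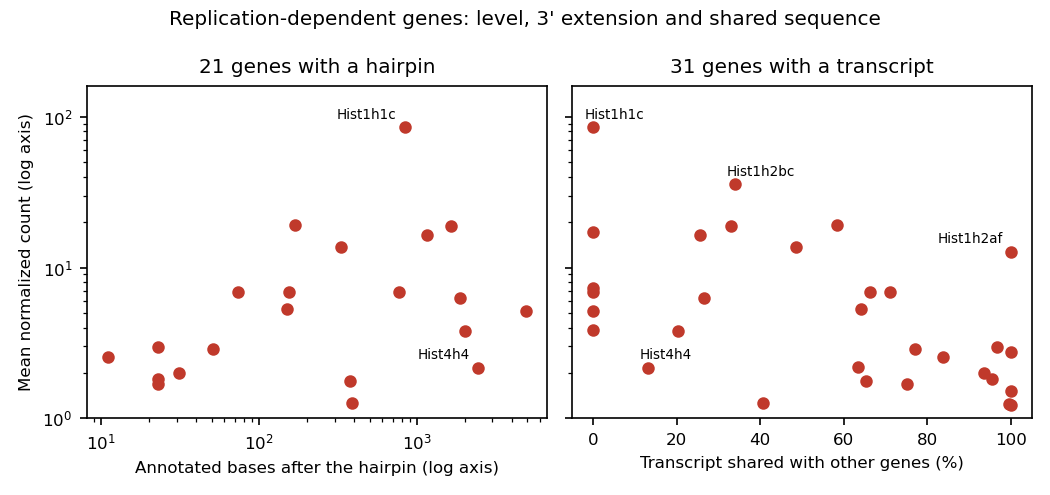
Mean normalized count (log axis) of replication-dependent genes against the annotated bases after the hairpin (left, log axis, 21 genes) and against the percentage of the transcript shared with other genes (right, 31 genes), with 1 point per gene. Hist1h1c, at 85.5, extends 840 bases past its hairpin and shares no sequence, while Hist4h4 extends 2445 bases and stands at 2.17.

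Clustered H2A and H2B genes often start back to back and share the DNA between them as a promoter, and 4 such pairs with starts within 1000 bases had levels for both genes. Hist1h2bc stood at 35.8 and Hist1h2ac at 3.81, a ratio of 9.70 per kb of coding sequence. Hist1h2bg stood at 6.88 and Hist1h2ae at 5.29, a ratio of 1.34 on the same scale. Per kb of exon, Hist1h2bc stood at 30.96 and Hist1h2ac at 1.53. The level of Hist1h2ac rests on 15.2 normalized reads over the 4 libraries, so its ratio is imprecise. The levels of the other pairs, Hist1h2bj at 2.97 with Hist1h2ag at 1.82 and Hist1h2bp at 2.18 with Hist1h2an at 1.22, rest on too few reads to be ranked. The H2A transcripts of these pairs share sequence with 31 or 32 other genes and the H2B transcripts with 9 to 12, and the part of this in the ratios was not tested.

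The promoter window of the Hist1h2ac and Hist1h2bc pair, whose ratio was 9.70, is shown, from RefSeq on GRCm38.p6 in the direction of Hist1h2ac (chr13:23683910-23684209, minus strand). Capitals mark CCAAT and TATAAA boxes on either strand, CCAAT being bound by NF-Y and TATAAA by the TATA-binding protein.

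Hist1h2ac: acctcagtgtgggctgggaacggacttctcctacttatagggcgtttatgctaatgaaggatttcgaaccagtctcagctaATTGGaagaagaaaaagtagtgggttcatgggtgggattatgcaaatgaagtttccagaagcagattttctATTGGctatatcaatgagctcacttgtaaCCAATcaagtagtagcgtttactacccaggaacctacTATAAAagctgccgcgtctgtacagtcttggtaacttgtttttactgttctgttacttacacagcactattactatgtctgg

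The window holds 3 CCAAT boxes and 1 TATAAA box and spans the 250 bases between both starts. Promoter windows of 300 bases were found for 29 of the replication-dependent genes and for all 9 variants. CCAAT, on either strand, occurred in 24 of the 29 (82.8%) and in 6 of the 9 variants (66.7%), against 37.4% of all 32851 windows. TATAAA occurred in 19 of 29 (65.5%) and in 1 of 9 variants, H3f3b, against 13.6% of all windows. Both motifs were searched on both strands and do not overlap each other. Genes that start back to back share part of their windows.

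Genes that process histone mRNA or carry histones were abundant beside the low clustered transcripts. Of 12 genes of histone pre-mRNA processing and transcription all had a level, with a median of 314 per kb of exon. Slbp, which encodes the hairpin-binding protein, stood at 6880 (1132 per kb of exon), and Eri1, an exonuclease that trims the hairpin end, at 5549 (626 per kb). Zfp473, which encodes a protein of the processing complex, was the lowest at 97.3 (9.69 per kb). In these polyadenylated libraries, Slbp alone exceeded the sum of the 31 clustered genes with a length, 299.6 per kb of exon. Such libraries mostly lack mRNAs that end at the hairpin, so Slbp was not compared with the total mRNA of the clustered genes.

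Chaperones and other genes that handle H3 and H4 for replication had a median of 1222 per kb of exon (10 genes). Per kb they were led by Rbbp7, a histone-binding protein, at 10431 (3586 per kb) and Mcm2, a helicase subunit that binds H3-H4, at 14311 (2057 per kb). The lowest on both scales was the chaperone gene Asf1a at 678 (186 per kb). The 6 genes of H3.3 deposition had a median of 352 per kb, with Hira at 3231 (520 per kb), Ubn1 at 3802 (460 per kb) and Ubn2 at 1592 (74.3 per kb). The 11 genes of H2A-H2B and H2A.Z exchange had one of 1073 per kb, led by Ssrp1, a subunit of the FACT complex, at 14393 (3852 per kb) and Nap1l1, a nucleosome assembly protein, at 13462 (2696 per kb), with the remodeler gene Srcap, at 801, the lowest per kb (50.7). Of histone variants outside the set, H2afx, known for its phosphorylation at DNA breaks, stood at 1584 (1145 per kb) and Cenpa, the centromeric H3, at 3040 (519 per kb).

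**Figure D4:**
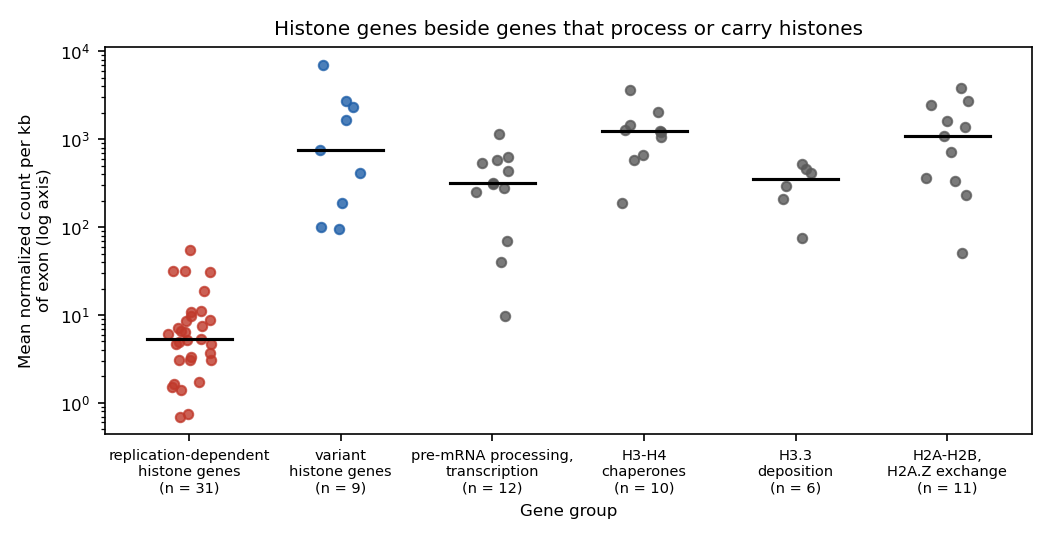
Mean normalized count per kb of annotated exon (log axis) of the replication-dependent and variant histone genes and of 4 gene lists, with 1 point per gene and a black line at the median. The replication-dependent genes have a median of 5.37 and the other groups medians from 314 to 1222. The libraries are polyadenylated RNA and mostly lack mRNAs that end at the hairpin.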

How the data were processed

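Polyadenylated RNA of 2 control and 2 Lmnb1 KD libraries was sequenced by Ion Torrent. The authors trimmed reads with Reaper and mapped them to mm10 with STAR. The authors then compared the groups with DESeq2. Tool versions, the counting program, its annotation and its strand setting are not stated in the sources used. The only value used is a signal that the authors deposited, the mean over the 4 libraries of counts divided by size factors. The table's other numeric columns hold the authors' own comparison of Lmnb1 KD with control (fold changes with raw and adjusted p-values). They were not used. The planned test of Lmnb1 KD against control was not run, because no value of a single library was at hand. Depth and precision per library are unknown for the same reason. A level of 1.22 stands for 4.89 normalized reads over the 4 libraries, so the lowest members rest on few reads.

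Rows without a level (112) were left out. Identifiers were matched to GENCODE M21 on GRCm38, the assembly of mm10, with Python 3.11.15 and pandas 2.3.3. Lengths were the union of exons. All 9 variants and 31 clustered genes matched; the other 7, with levels of 1.33 to 5.09, have no length or sequence here. The annotation holds 67 protein-coding genes of the clusters, 29 more than the 38 analysed here. Shared sequence was searched with BLAST 2.17.0 (95% identity over at least 100 bases) among all annotated transcripts. The hairpin search was checked on made-up sequences. Genes named are the variants, the 10 clustered genes of highest level per kb, the highest of each family and cluster, and the 2 highest and the lowest of each list; other members, among them those of the pairs, were named after their values were seen. Members and lists were chosen with earlier results of these data known.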

Additional observations from a re-analysis of the deposited data

How the results depend on the processing

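No paired analysis was possible because the table gives no value of a single library, and leaving out a replicate, other size factors and another pseudocount were not run for the same reason. With no spread, a value was taken as moved when it changed by over 1.5 times. The number of histone genes at or above a mean level of 2 was 35, and it fell to 17 at a minimum of 10 and to 9, all variants, at a minimum of 100; without a minimum it was 47. The median of the replication-dependent genes stayed between 5.04 and 7.86 per kb under 4 alternatives, of which the match of lengths by symbol (5.04) was chosen after seeing the data. The median of the variants moved from 748 per kb of exon to 1384 per kb of the longest transcript and 5895 per kb of coding sequence, since these divide by shorter lengths. The share of the summed level in replication-dependent genes was 1.92% per kb of exon. It was 1.52% with the longest transcript, 0.803% with no division by length and 0.747% with coding length, and 3.50% without H3f3b, the highest member. The 9 variants stayed above the 31 replication-dependent genes with a length per kb of exon and per kb of coding sequence. Depth limits the order of the 22 members under a level of 5, which cannot be ranked here.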
